A study of Mus musculus with 18 samples.

Results

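The 9 genes described here, Ikzf3, Zpbp2, Ormdl3, Psmd3, Csf3, Med24, Thra, Nr1d1 and Casc3, lie on mouse chromosome 11 on the telomeric side of Erbb2, beyond Grb7. They were selected by that position with their measured levels in KI tumours, NIC pools and normal glands already known, so group comparisons of these genes are descriptions: no p-value is given for them, and counts of those called serve only to be set beside the share of all genes. They make up 9 of the 28910 genes or unnamed transcripts on the arrays and carry 14 of the 41174 probes. The RefSeq gene order puts 14 protein-coding genes between Ikzf3 and Casc3, these included. Of the other genes in that stretch, Gsdma2, Gsdma and Msl1 had a probe, and no probe was matched to Lrrc3c or Gsdma3.

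The series, whose title concerns β-catenin in ErbB2-driven mammary tumour progression, measured RNA on 2-colour Agilent arrays in whole flash-frozen mammary tissue of FVB/N mice, an inbred strain used for mammary tumour models. There were 5 single ErbB2 knock-in tumours (KI), 2 NIC tumour pools, each an equal mix of 5 tumours, and 2 normal mammary glands. Each RNA was hybridised in both dye orientations, hence on 2 arrays, against a commercial pooled mouse RNA as common reference, and a level here is the mean log2 ratio of sample over reference of that dye pair. The labels describe KI as an ErbB2 knock-in and NIC by that name alone, give no age, promoter or treatment, and do not say whether any samples share an animal. A pool averages over its tumours, so the spread between NIC pools is not a spread between tumours. Erbb2 itself had levels of 0.83, 0.70, 1.01, 0.81 and 0.30 in KI tumours 1 to 5, against 0.39 and 0.81 in NIC pools and −1.08 and −1.29 in normal glands, so every tumour sample was above both glands and KI tumours overlapped NIC pools. DNA copy number was not measured in these data. In bulk tissue, fewer cells of a type and less RNA per cell cannot be told apart.

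Erbb2 encodes a receptor tyrosine kinase that drives a class of breast cancers, and in human breast tumours with extra copies of it the copied segment commonly carries flanking genes as well. How far such a segment reaches differs from tumour to tumour. The 9 genes have unrelated jobs. Ormdl3 is an endoplasmic reticulum protein that restrains serine palmitoyltransferase, the entry enzyme of sphingolipid synthesis, and Zpbp2 is a sperm acrosome protein that binds the egg coat. Psmd3 is a non-ATPase subunit of the 19S regulatory particle of the proteasome, Med24 a subunit of the Mediator complex that links transcription factors to RNA polymerase II, and Casc3 a component of the exon junction complex. Csf3 is the secreted cytokine G-CSF, which raises neutrophil production. Thra is thyroid hormone receptor alpha, Nr1d1 the clock repressor REV-ERBα, and Ikzf3 the lymphoid transcription factor Aiolos.

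RefSeq promoter sequence (build GRCm38.p6) matched 3 of the 9 genes. The 250 bases before each start are shown because Zpbp2 and Ormdl3 were high in the same KI tumours, while Nr1d1 hardly varied; capitals mark matches to the motifs named after the sequences.
Zpbp2, chr11:98550847-98551096, plus strand: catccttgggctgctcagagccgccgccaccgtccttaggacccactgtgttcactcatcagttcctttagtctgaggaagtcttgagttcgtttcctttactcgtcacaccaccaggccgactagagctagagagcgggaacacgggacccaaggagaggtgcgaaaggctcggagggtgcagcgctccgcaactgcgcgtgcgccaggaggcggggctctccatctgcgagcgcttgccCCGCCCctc
Ormdl3, chr11:98587246-98587495, minus strand: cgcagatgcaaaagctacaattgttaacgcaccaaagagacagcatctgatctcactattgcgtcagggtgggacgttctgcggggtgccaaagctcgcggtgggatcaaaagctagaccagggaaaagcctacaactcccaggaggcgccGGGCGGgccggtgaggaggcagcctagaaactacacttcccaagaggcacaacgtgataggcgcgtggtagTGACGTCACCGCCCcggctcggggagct
Nr1d1, chr11:98775378-98775627, minus strand: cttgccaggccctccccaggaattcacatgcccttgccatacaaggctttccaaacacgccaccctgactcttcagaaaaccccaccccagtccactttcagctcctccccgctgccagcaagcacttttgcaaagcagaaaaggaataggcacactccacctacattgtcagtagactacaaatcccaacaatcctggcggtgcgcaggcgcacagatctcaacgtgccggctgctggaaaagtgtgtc
The strands show that Zpbp2 and Ormdl3 are transcribed towards each other. Both strands were searched for 5 motifs, chosen after the sequences were read. GGGCGG, the GC box, matched once before Zpbp2 and at 2 places before Ormdl3, and 32.7% of all 32851 promoters of the same length held it. TGACGTCA, the cyclic AMP response element, matched before Ormdl3 alone of the 3 genes, directly followed by a GC box match on the opposite strand and not overlapping it, and 1.55% of promoters held it. The E-box CACGTG (6.02% of promoters), the nuclear receptor element AGGTCA (14%) and the TATA box TATAAA (12.4%) matched in none of the 3 windows. A match is a run of letters and not a shown binding site.

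The KI tumours differed from one another in which of the 9 genes were high. By a limit chosen after the values were seen, more than 1 log2 unit above the highest of the NIC and normal samples, KI tumour 5 had 7 of the 9 genes (Zpbp2, Ormdl3, Psmd3, Csf3, Med24, Thra and Casc3), against 1.37% of all genes in that tumour. KI tumour 3 had 5 (Zpbp2, Ormdl3, Psmd3, Csf3 and Med24), against 1.72% of all genes. KI tumours 2 and 4 had 3 each, against 0.882% and 1.44% of all genes. In tumour 2 these were Zpbp2, Ormdl3 and Casc3, and in tumour 4 they were Zpbp2, Ormdl3 and Med24, the last only just past the limit. KI tumour 1 had Csf3 alone, against 2.21% of all genes. These shares are set beside each other as a description, since the genes were chosen with the values known. Ikzf3, by its brightest probe, and Nr1d1 exceeded the limit in no tumour. With probes averaged, Zpbp2 exceeded it in no tumour.

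**Figure D1:**
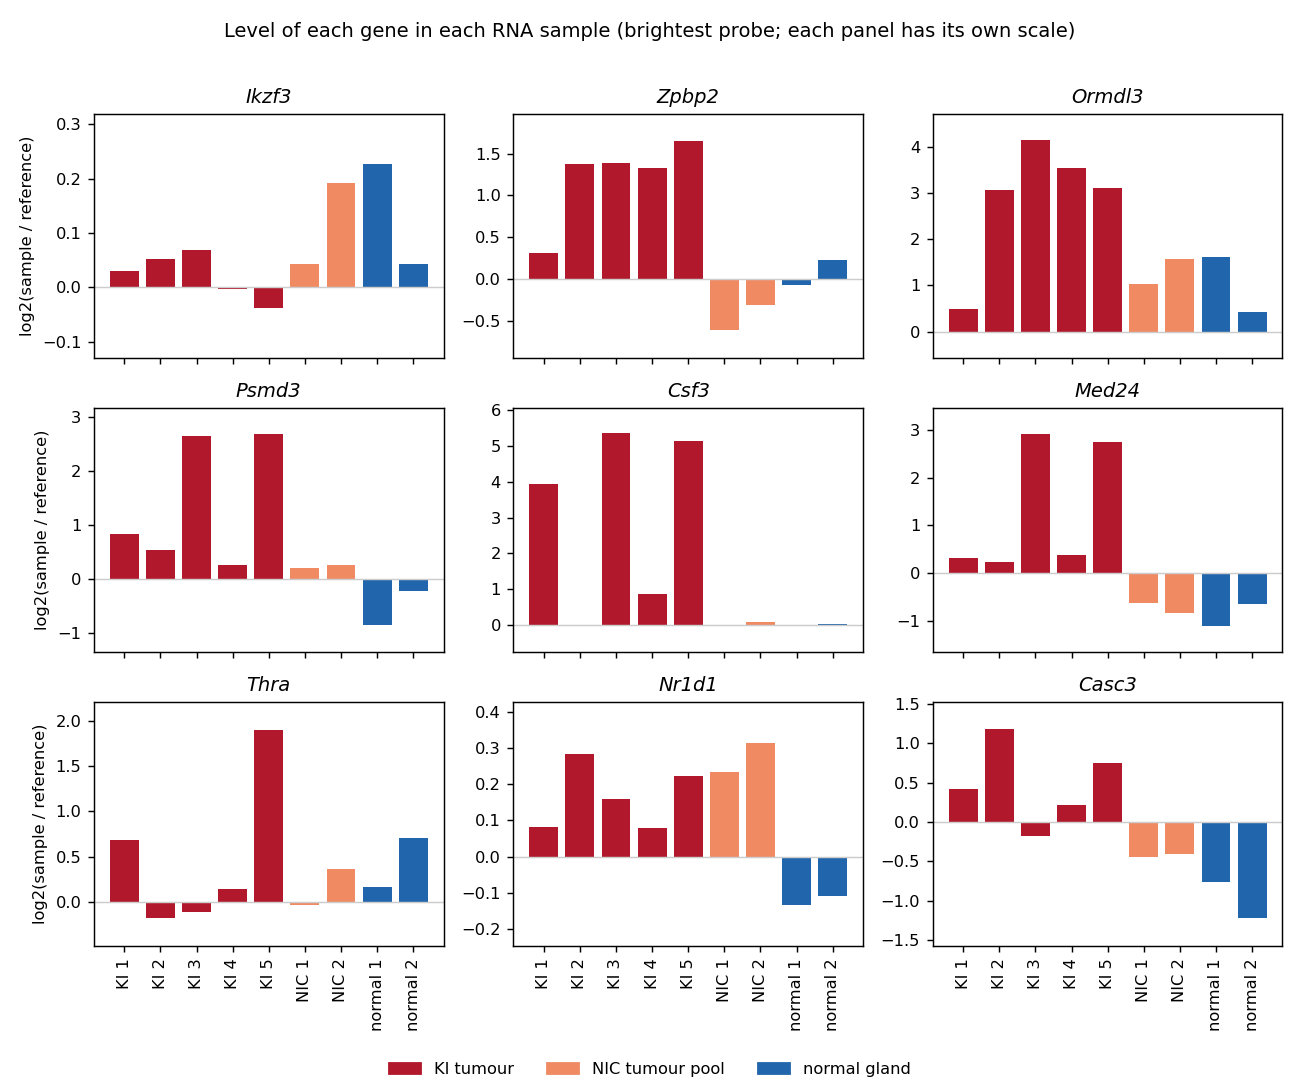
Bars show the level of each gene (log2 of sample over reference, brightest probe, mean of a dye pair) in each RNA sample: 5 KI tumours, 2 NIC pools and 2 normal glands, with a separate scale in each panel. Ormdl3 and Zpbp2 are low in KI tumour 1 and high in the other KI tumours, Psmd3 and Med24 are high in KI tumours 3 and 5, and Csf3 is high in KI tumours 1, 3 and 5.

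Ormdl3 had levels of 0.50, 3.07, 4.16, 3.54 and 3.12 in KI tumours 1 to 5, against 1.03 and 1.58 in the NIC pools and 1.61 and 0.43 in the normal glands. KI tumours 2 to 5 all lay above every NIC and normal sample, and KI tumour 1 lay among them. The mean was 1.86 ± 0.90 higher in KI than in normal samples (log2 difference ± SE from limma, n = 5 and 2) and 1.57 ± 0.90 higher than in NIC pools. Without KI tumour 1 the difference from normal was 2.45, and it was 1.27 without normal gland 2. That gland's level is uncertain, because its arrays read 1.34 with the sample in Cy5 and −0.48 with it in Cy3, a gap of 1.82 and the largest among the 81 dye pairs of the 9 genes (median gap 0.240).

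Zpbp2 followed the same division of the KI tumours on its brightest probe, designed to its RefSeq transcript. Levels were 0.31, 1.38, 1.39, 1.33 and 1.65 in KI tumours 1 to 5, against −0.61 and −0.31 in NIC pools and −0.07 and 0.23 in normal glands. KI tumours 2 to 5 stood well apart from all other samples, and KI tumour 1 was only 0.089 above the higher normal gland. The second probe, named from a RIKEN clone, did not show this: it read 0.13 to 0.30 in KI tumours, 0.00 and 0.02 in NIC pools, and 0.55 and 0.40 in normal glands. On that probe normal glands were the highest samples. With both probes averaged, the KI excess over normal was 0.44 in place of 1.13 ± 0.33, so the size of the Zpbp2 difference depends on the probe.

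Psmd3 and Med24 formed a second pattern. Psmd3 had 0.83, 0.54, 2.65, 0.26 and 2.69 in KI tumours 1 to 5, against 0.22 and 0.26 in NIC pools and −0.85 and −0.22 in normal glands. Med24 had 0.31, 0.24, 2.92, 0.37 and 2.76 in KI tumours 1 to 5, against −0.64 and −0.85 in NIC pools and −1.11 and −0.65 in normal glands. For both genes KI tumours 3 and 5 were far above the rest and every KI tumour was above every normal and NIC sample, although KI tumour 4 exceeded the higher NIC pool by only 0.0038 for Psmd3. The KI mean exceeded the normal mean by 1.93 ± 0.74 for Psmd3 and by 2.20 ± 0.86 for Med24, and the NIC mean by 1.16 ± 0.74 and 2.07 ± 0.86. Psmd3 spots were saturated in the tumour channel on 3 arrays, both of KI tumour 3 and 1 of KI tumour 5, so those levels are bounds from below.

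Csf3, the cytokine gene that lies between Psmd3 and Med24, had 3.93, 0.01, 5.36, 0.87 and 5.13 in KI tumours 1 to 5, against −0.00 and 0.07 in NIC pools and −0.03 and 0.04 in normal glands. It was high in KI tumours 1, 3 and 5, slightly above the NIC and normal samples in tumour 4, and at the reference level in tumour 2 and in every NIC and normal sample. KI tumour 2 therefore overlapped the other groups. The KI excess was 3.05 ± 1.51 over normal and 3.03 ± 1.51 over NIC, and without KI tumour 2 it was 3.82 and 3.79. In tumour 1 Csf3 was high while its neighbours Psmd3 and Med24 were far below their levels in tumours 3 and 5.

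The tumour channel of the Csf3 spot read 26497 and 25535 in KI tumour 3, 13378 and 13332 in tumour 5, and 2362 and 2795 in tumour 1 (processed signal, sample in Cy3 and then in Cy5). It read 330.3 and 295.5 in tumour 4 and 81.6 and 94.7 in tumour 2, and all these spots were well above background. The reference channel, which holds the same RNA on every array, was not constant. It lay at 571 and 1178 on the arrays of tumour 3, and at 61.5 and 125 on those of tumour 2. The same held for Med24, whose reference channel read 12003 and 26724 on the arrays of tumour 3 and 4482 to 6551 on those of tumours 1, 2 and 4. A reference signal that is higher where the tumour signal is higher makes a ratio smaller, and how much of it came from the tumour channel was not tested. With intensities background corrected and normalised anew, Csf3 levels were 2.73, −0.02, 4.72, 0.74 and 4.20 in KI tumours 1 to 5, which keeps the order of the tumours.

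**Figure D2:**
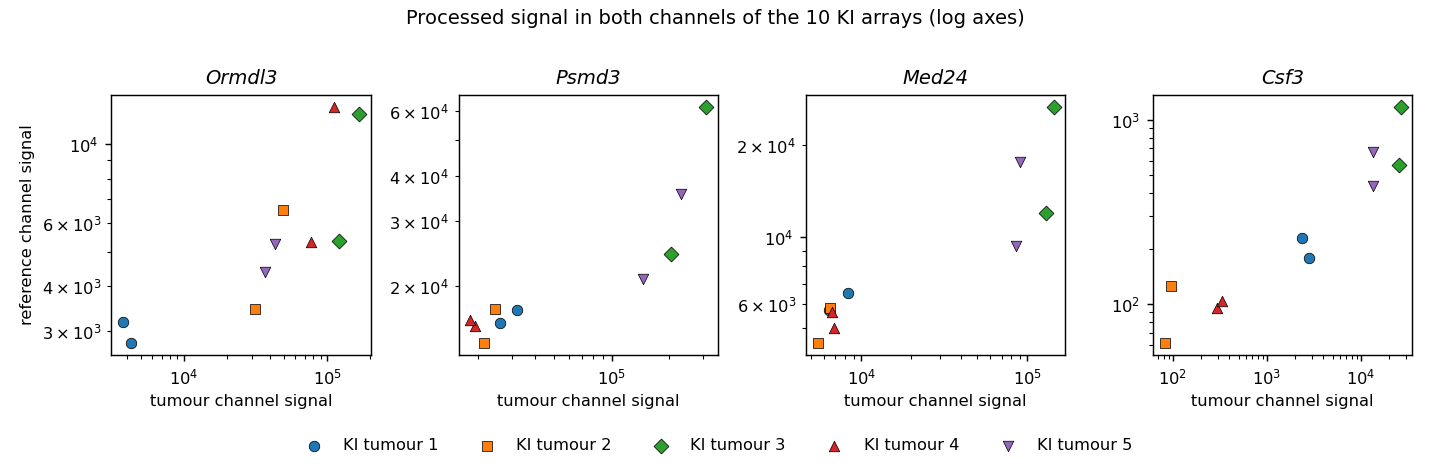
Each point is an array of a KI tumour, with the processed signal of the tumour channel on the x axis and of the reference channel on the y axis, both logarithmic, for Ormdl3, Psmd3, Med24 and Csf3. For Csf3, Med24 and Psmd3 the highest reference signals (1178, 26724 and 61681) stand on an array of KI tumour 3, which also has their highest tumour signals. For Ormdl3 the highest reference signal (12709) stands on an array of KI tumour 4 and the highest tumour signal (167505) on one of KI tumour 3.

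G-CSF acts through its receptor Csf3r on neutrophils and their precursors. Csf3r had 2.68, 0.71, 2.06, 1.32 and 2.75 in KI tumours 1 to 5, against 1.21 and 0.78 in NIC pools and 1.31 and 1.25 in normal glands. It was highest in KI tumours 1, 3 and 5, the tumours with high Csf3. S100a9, a calcium-binding protein abundant in neutrophils, had 4.97, 0.51, 5.29, 4.45 and 5.24 in KI tumours, against 1.89 and 1.02 in NIC pools and 2.46 and 3.02 in normal glands. Here KI tumour 4 joined the high samples and KI tumour 2 was below every other sample. Retnlg, a resistin-like protein of neutrophils, had 2.34, −0.06, 3.53, 0.46 and 4.46 in KI tumours, against 0.27 and 0.05 in NIC pools and 0.93 and 1.92 in normal glands. Some other genes listed with them divided the tumours differently. Lcn2 had 2.08, 2.66, 2.14, 1.89 and 2.09 in KI tumours 1 to 5, highest in tumour 2. Mmp8 had 0.44, 0.01, 1.21, 1.21 and 1.56, higher in tumour 4 than in tumour 1. Cxcl5 had 1.84, −5.17, −2.47, −1.43 and −1.91, higher in tumour 4 than in tumours 3 and 5.

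**Figure D3:**
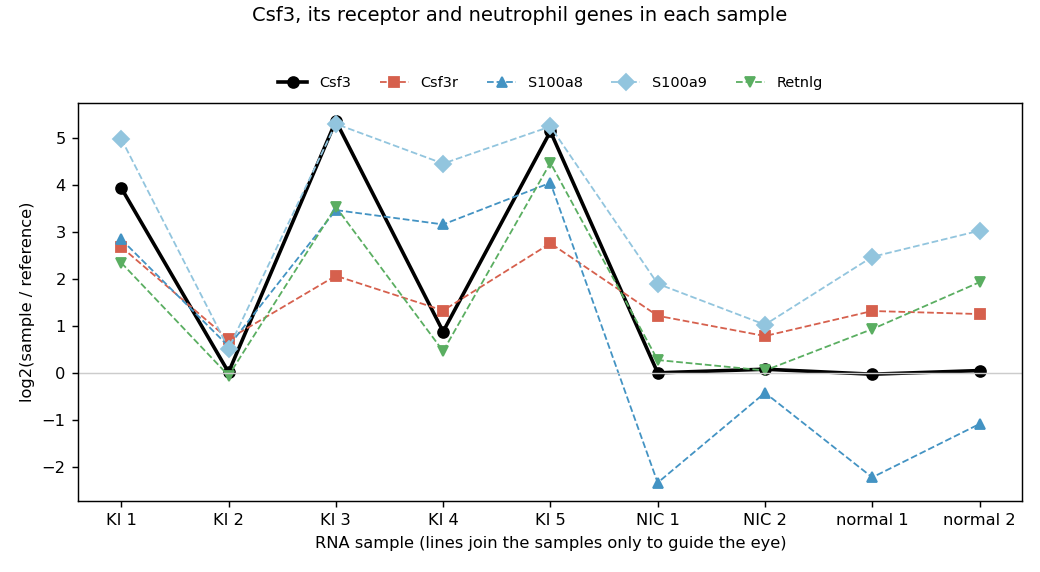
Points show levels (log2 of sample over reference) of Csf3, its receptor Csf3r and the neutrophil genes S100a8, S100a9 and Retnlg in each RNA sample, with lines only to guide the eye. Csf3 reaches 3.93, 5.36 and 5.13 in KI tumours 1, 3 and 5, and KI tumour 2 is at 0.01 with S100a9 at 0.51.

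Of 17 genes in a list of G-CSF signalling, neutrophil chemokine and granule genes, 3 rose and 0 fell in KI tumours against normal glands (limma, adjusted p under 0.05 over all genes), and the list median of 0.63 compares with −0.026 over all genes. For scale, the same fit called 17.8% of all genes up and 24.9% down against normal glands, and 2.92% up and 3.29% down against NIC pools. Against normal glands the count of higher genes in the list was near the share of all genes, and nothing is read from it. S100a8, the partner of S100a9, rose by 4.47 ± 0.95 (adjusted p = 0.00797), the neutrophil chemokine Cxcl1 by 1.25 ± 0.41 (adjusted p = 0.0405) and the granule enzyme Mpo by 0.42 ± 0.11 (adjusted p = 0.0192). The count depended on single samples: it was 7 without KI tumour 2, 1 without normal gland 2 and 0 without normal gland 1. With arrays scaled to 1 spread or quantile normalised, Cxcl1 (0.071 and 0.51) and Mpo were not called. Against NIC pools 2 of the 17 rose, S100a8 and the matrix protease Mmp9 (2.00 ± 0.22, adjusted p = 0.00496), and 0 fell. The S100a8 call against NIC was lost without either pool or any of KI tumours 1, 3, 4 and 5, and Mmp9 kept its call. The mean level of the neutrophil markers, 5 of 6 with a probe, was 1.63, 0.23, 1.83, 1.54 and 2.36 in KI tumours 1 to 5, against −0.12 and 0.09 in NIC pools and −0.02 and 0.36 in normal glands. Within it the granule genes Elane and Mpo, typical of immature cells, stayed between −0.07 and 0.46 in KI tumours. The later granule genes Ngp, also in this mean, and Camp, outside it, reached 1.89 and 2.55 in KI tumour 5 and stayed between −0.12 and 0.32 in the other KI tumours. The part of neutrophil content in the Csf3 levels was not tested.

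Thra was high in KI tumour 5 alone. Its brightest probe read 0.69, −0.17, −0.11, 0.14 and 1.90 in KI tumours 1 to 5, against −0.03 and 0.36 in NIC pools and 0.17 and 0.71 in normal glands. Its second probe read −0.27, −0.70, −0.74, −0.25 and 0.65 in KI tumours, against −0.39 and −0.17 in NIC pools and −0.24 and −0.77 in normal glands. On both probes KI tumour 5 was the highest of the 9 samples and the other KI tumours overlapped the NIC and normal samples. The mean difference between KI and normal was 0.05 ± 0.55, and −0.30 without KI tumour 5.

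Nr1d1, which overlaps the end of Thra on the opposite strand, was nearly level. Its brightest probe read 0.08, 0.28, 0.16, 0.08 and 0.22 in KI tumours 1 to 5, against 0.23 and 0.31 in NIC pools and −0.13 and −0.11 in normal glands. Every tumour sample lay above both normal glands, but within a span of 0.45 over all 9 samples. The second probe ran from −1.07 to −0.53 in KI tumours, against −0.88 and −0.06 in NIC pools and −0.77 and −0.55 in normal glands, so the groups overlapped there. KI tumour 5, high for Thra, did not stand out for Nr1d1 on either probe. Whether a probe of either gene lies in the shared stretch was not checked.

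Of 15 thyroid hormone pathway genes, 3 rose and 3 fell in KI tumours against normal glands (list median 0.047). The retinoid X receptor gene Rxrg fell by 2.74 ± 0.18 (adjusted p = 9.86e-05). Without normal gland 1 the count of lower genes was 1. Against NIC pools 0 rose and 2 fell, and 1 fell without either pool. Of 18 clock genes other than Nr1d1, 4 rose and 5 fell against normal (median 0.072; 2 higher with arrays scaled and 1 after quantile normalisation), and 1 rose and 5 fell against NIC pools (median −0.53). For both lists the counts against normal were near the shares of all genes, 17.8% higher and 24.9% lower, and nothing is read from them. Against NIC pools the shares of all genes were 2.92% higher and 3.29% lower. The clock output factors Tef and Dbp fell by 2.05 ± 0.43 and 1.10 ± 0.20 against normal (adjusted p = 0.00728 and 0.00454). Without normal gland 2 the counts against normal were 1 higher and 3 lower, and Tef was not called. Against NIC pools the lower count was 1 without either pool. Nr1d2, the close relative of Nr1d1, had −0.50 to 0.02 in KI tumours, against 0.53 and 0.22 in NIC pools and 0.73 and 0.34 in normal glands.

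**Figure D4:**
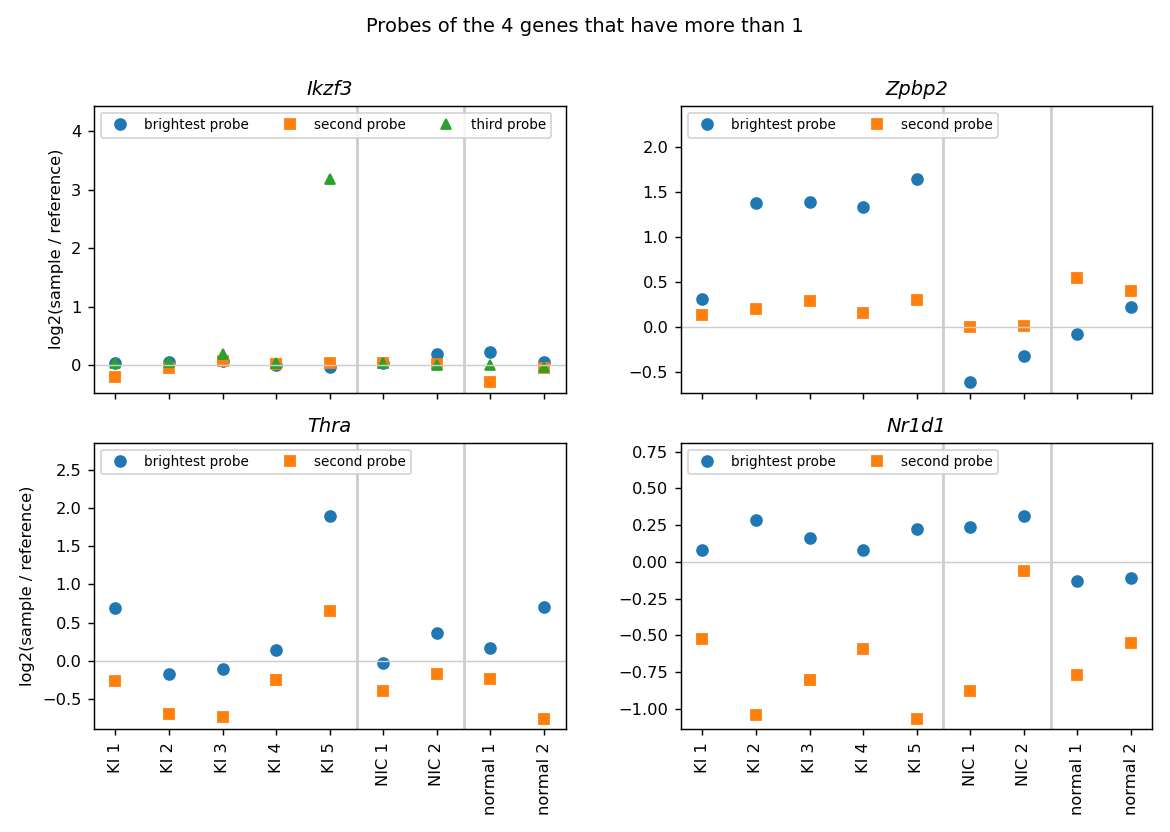
Points show the level (log2 of sample over reference) on each probe of the 4 genes with more than 1 probe, in the 5 KI tumours, 2 NIC pools and 2 normal glands. The third Ikzf3 probe reaches 3.19 in KI tumour 5 while the other Ikzf3 probes stay near 0, and the second Zpbp2 probe does not repeat the division seen on the brightest.

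Ikzf3, the gene of the 9 nearest to Erbb2, was at the reference level on its brightest probe, with −0.04 to 0.07 in KI tumours, 0.04 and 0.19 in NIC pools, and 0.23 and 0.04 in normal glands. The second probe ranged from −0.20 to 0.07 in KI tumours, against 0.03 and 0.01 in NIC pools and −0.30 and −0.05 in normal glands. The third probe, made to a RIKEN clone annotated as Aiolos, read 0.03, 0.05, 0.20, 0.03 and 3.19 in KI tumours 1 to 5, against 0.03 and 0.01 in NIC pools and −0.01 and −0.03 in normal glands. KI tumour 5 was thus far above all other samples on this probe alone. The tumour channel of this probe read 1042 and 1141 in KI tumour 5 and 64.4 and 76.5 in tumour 3, and 11.2 to 18.8 on the arrays of the other KI tumours. The tumour channel was well above background on 5 of the 10 KI arrays, those of tumours 3 and 5 and 1 of tumour 2. The reference channel was well above background on 1 of the 10 arrays (11.4 to 57.6), so on this probe the tumour signals can be set beside each other but the size of a ratio to the reference is uncertain.

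Aiolos is made mainly by B cells. As a scale for the counts below, 17.8% of all genes rose and 24.9% fell in KI tumours against normal glands. Against NIC pools 2.92% of all genes rose and 3.29% fell. Of 8 B lymphocyte genes 0 rose and 5 fell in KI tumours against normal glands (median −0.53), among them the B cell receptor chain Cd79b, which fell by 3.35 ± 0.10 (adjusted p = 3.56e-06). Not all were lower: the B cell factor Pax5 had 0.09 to 1.22 in KI tumours, against 0.08 and 0.08 in NIC pools and 0.04 and 0.04 in normal glands, and the kinase Blk had −0.03 to 0.23 in KI tumours, against −0.05 and −0.12 in NIC pools and 0.10 and −0.36 in normal glands. The mean level of 4 B cell markers was −1.77 to −1.51 in KI tumours, against −2.02 and −1.97 in NIC pools and 0.39 and −0.20 in normal glands. Of 8 T lymphocyte genes 1 rose and 6 fell against normal, where Cd3d fell by 2.31 ± 0.32 (adjusted p = 0.00145). Against NIC pools 1 B cell gene rose, Cd79b by 0.48 ± 0.10 (adjusted p = 0.0409), a call lost without either pool or any KI tumour but tumour 2, and 0 T cell genes were called. Of the 4 other Ikaros family genes, Ikzf5 rose against normal (2.40 ± 0.72, adjusted p = 0.0304), with levels of −0.01 to 0.63 in KI tumours, against 0.48 and −0.26 in NIC pools and −0.48 and −3.59 in normal glands. The Ikzf5 call was lost without normal gland 2 or any of KI tumours 2, 4 and 5. Ikzf1, which encodes Ikaros, fell against NIC pools by 0.80 ± 0.16 (adjusted p = 0.031), with levels of −0.30 to −0.06 in KI tumours, against 0.94 and 0.33 in NIC pools and 0.06 and 0.26 in normal glands. That call was lost without NIC pool 1 or any of KI tumours 1, 3, 4 and 5, and with either dye alone.

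Casc3, at the far end of the stretch, was moderately higher in all KI tumours. Levels were 0.41, 1.18, −0.18, 0.21 and 0.75 in KI tumours 1 to 5, against −0.44 and −0.41 in NIC pools and −0.77 and −1.23 in normal glands. No KI tumour overlapped a NIC or normal sample, and the NIC pools lay above both normal glands. The KI mean was 1.47 ± 0.33 above normal and 0.90 ± 0.33 above NIC. Normal gland 2 is uncertain here too, at −0.47 with the sample in Cy5 and −1.99 with it in Cy3, a gap of 1.52. The KI excess over normal was 1.13 from Cy5-labelled samples and 1.82 from Cy3-labelled samples. KI tumour 3, high for Psmd3 and Med24, was the lowest KI tumour for Casc3.

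Over the 9 genes, 3 (Zpbp2, Nr1d1 and Casc3) were called higher in KI tumours than in normal glands and 0 lower, where 17.8% of all genes were called higher and 24.9% lower. In 5 of the 9 (Zpbp2, Psmd3, Med24, Nr1d1 and Casc3) every KI tumour lay above both normal glands, as it did for 23.7% of all genes, and in 0 of the 9 every KI tumour lay below both, as for 30.4% of all genes. Against NIC pools 1 gene, Zpbp2, was called higher and 0 lower, where 2.92% and 3.29% of all genes were called, and in 4 (Zpbp2, Psmd3, Med24 and Casc3) every KI tumour lay above both pools, as for 16.4% of all genes, and in 0 below both, as for 14.7%. Between NIC pools and normal glands 0 of the 9 were called, where 8.8% of all genes were called higher and 9.79% lower. Nothing is read from these counts, since the genes were chosen with the values known. They also hang on few samples: against normal the count was 0 without normal gland 2, 1 (Casc3) without normal gland 1 and 4 without KI tumour 1, when Ormdl3 was added. The Zpbp2 call against NIC was lost without either pool and without any of KI tumours 3, 4 and 5. The median difference of the 9 genes was 1.47 in KI against normal, 1.16 in KI against NIC and 0.13 in NIC against normal, beside −0.026, 0.0034 and −0.057 over all genes. Genes that were high in only some KI tumours, such as Ormdl3, Psmd3, Csf3 and Med24, had the larger standard errors (0.74 to 1.51) and were not called.

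Differences between NIC pools and normal glands were small for most of the 9. The NIC mean was above normal by 0.77 ± 0.25 for Psmd3, 0.57 ± 0.19 for Casc3 and 0.39 ± 0.098 for Nr1d1, and in these 3 genes both pools lay above both glands, as they did for 30% of all genes. It was below normal for Zpbp2 (−0.54 ± 0.18), where both pools lay below both glands, as they did for 41.2% of all genes, and for Thra (−0.27 ± 0.26). For Ormdl3, Csf3, Med24 and Ikzf3 the difference lay between −0.018 and 0.29 and changed sign with a sample left out. Since a pool mixes 5 tumours, a high level in 1 of them would be diluted in these values. In the partner and neighbour lists NIC against normal gave 0 to 4 higher and 0 to 3 lower calls each, and without either NIC pool no gene on the arrays was called.

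Grb7, an adaptor protein that binds ErbB2, lies between Erbb2 and Ikzf3 and was high in every KI tumour. It had 4.13, 4.56, 4.34, 3.76 and 4.13 in KI tumours 1 to 5, against 2.62 and 3.13 in NIC pools and 0.64 and 1.06 in normal glands. No KI tumour overlapped another group, and KI tumour 1, low for Ormdl3 and Zpbp2, was not low for Grb7. As a scale for the next counts, 17.8% of all genes rose and 24.9% fell against normal, and 2.92% rose against NIC pools. Of 12 genes of the core stretch from Fbxl20 to Grb7, Erbb2 among them, 6 rose and 1 fell in KI tumours against normal (median 1.57), and 3 rose against NIC pools (0 without NIC pool 1, and 1 without NIC pool 2 or KI tumour 5). Stard3, a cholesterol transfer protein, had 1.44, 3.08, 4.21, 3.81 and 3.50 in KI tumours, with tumour 1 the lowest here as well, against 0.92 and 1.13 in NIC pools and −1.06 and −0.65 in normal glands. Some other core genes split by tumour. Fbxl20 had 3.96 in KI tumour 2 and −0.44 to 1.15 in the others, and Med1 was also highest in tumour 2. Cdk12 had 2.02 in tumour 2, more in tumour 3 and −0.01 to 0.29 in the others. Ppp1r1b had 2.16 in tumour 3 and −0.10 to 0.33 in the others, and Tcap ran from 0.11 to 2.81. Mien1 and Pgap3, like Grb7 and Stard3, were above every NIC and normal sample in all KI tumours.

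Between and beyond the 9 genes, some neighbours split by tumour and others did not. Gsdma, a pore-forming gasdermin, had 0.01, 0.32, 1.36, 2.16 and 0.92 in KI tumours 1 to 5, against −0.10 and 0.05 in NIC pools and 0.13 and 0.18 in normal glands, so that tumour 4 was highest and tumour 1 lay among the others. Past Casc3, Wipf2, an actin regulator, had 2.93 in KI tumour 5 and −0.18 to 0.46 in the other KI tumours, against 0.24 and 0.33 in NIC pools and −1.25 and −1.38 in normal glands. Cdc6, a DNA replication licensing factor, had 1.44 in KI tumour 5 and −1.43 to −0.60 in the others, against −0.84 and −0.78 in NIC pools and −2.23 and −2.21 in normal glands. Rapgefl1 had 1.52 in KI tumour 5 and −0.44 to −0.06 in the others, against 0.51 and 0.08 in NIC pools and −0.58 and −0.26 in normal glands. KI tumour 5, the tumour with high Thra, was thus the highest sample for these 3 genes too. Msl1, between Nr1d1 and Casc3, had 0.50 to 1.29 in KI tumours, against 0.49 and 0.19 in NIC pools and 0.01 and −0.16 in normal glands, so it was above all other samples in every KI tumour, in tumours 3 and 4 by 0.039 or less. It rose by 0.89 ± 0.23 against normal (adjusted p = 0.0163), a call lost without either normal gland. Top2a, the DNA topoisomerase of dividing cells, had −1.91 to −1.50 in KI tumours, against −2.07 and −2.77 in NIC pools and −5.07 and −5.54 in normal glands, and rose by 3.59 ± 0.21 against normal (adjusted p = 5.74e-05). Both were high in every KI tumour relative to normal glands. Farther on, Rara, the retinoic acid receptor alpha gene, was 0.03 to 0.15 in all KI tumours. Over all genes, 17.8% were called higher and 24.9% lower against normal glands, and 2.92% higher and 3.29% lower against NIC pools. Of 13 other distal neighbours with a probe, 2 rose and 1 fell in KI tumours against normal (median 0.51; 4 higher without KI tumour 5 and 1 without either normal gland), and 1 rose against NIC pools, a call lost without any sample except KI tumour 2.

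**Figure D5:**
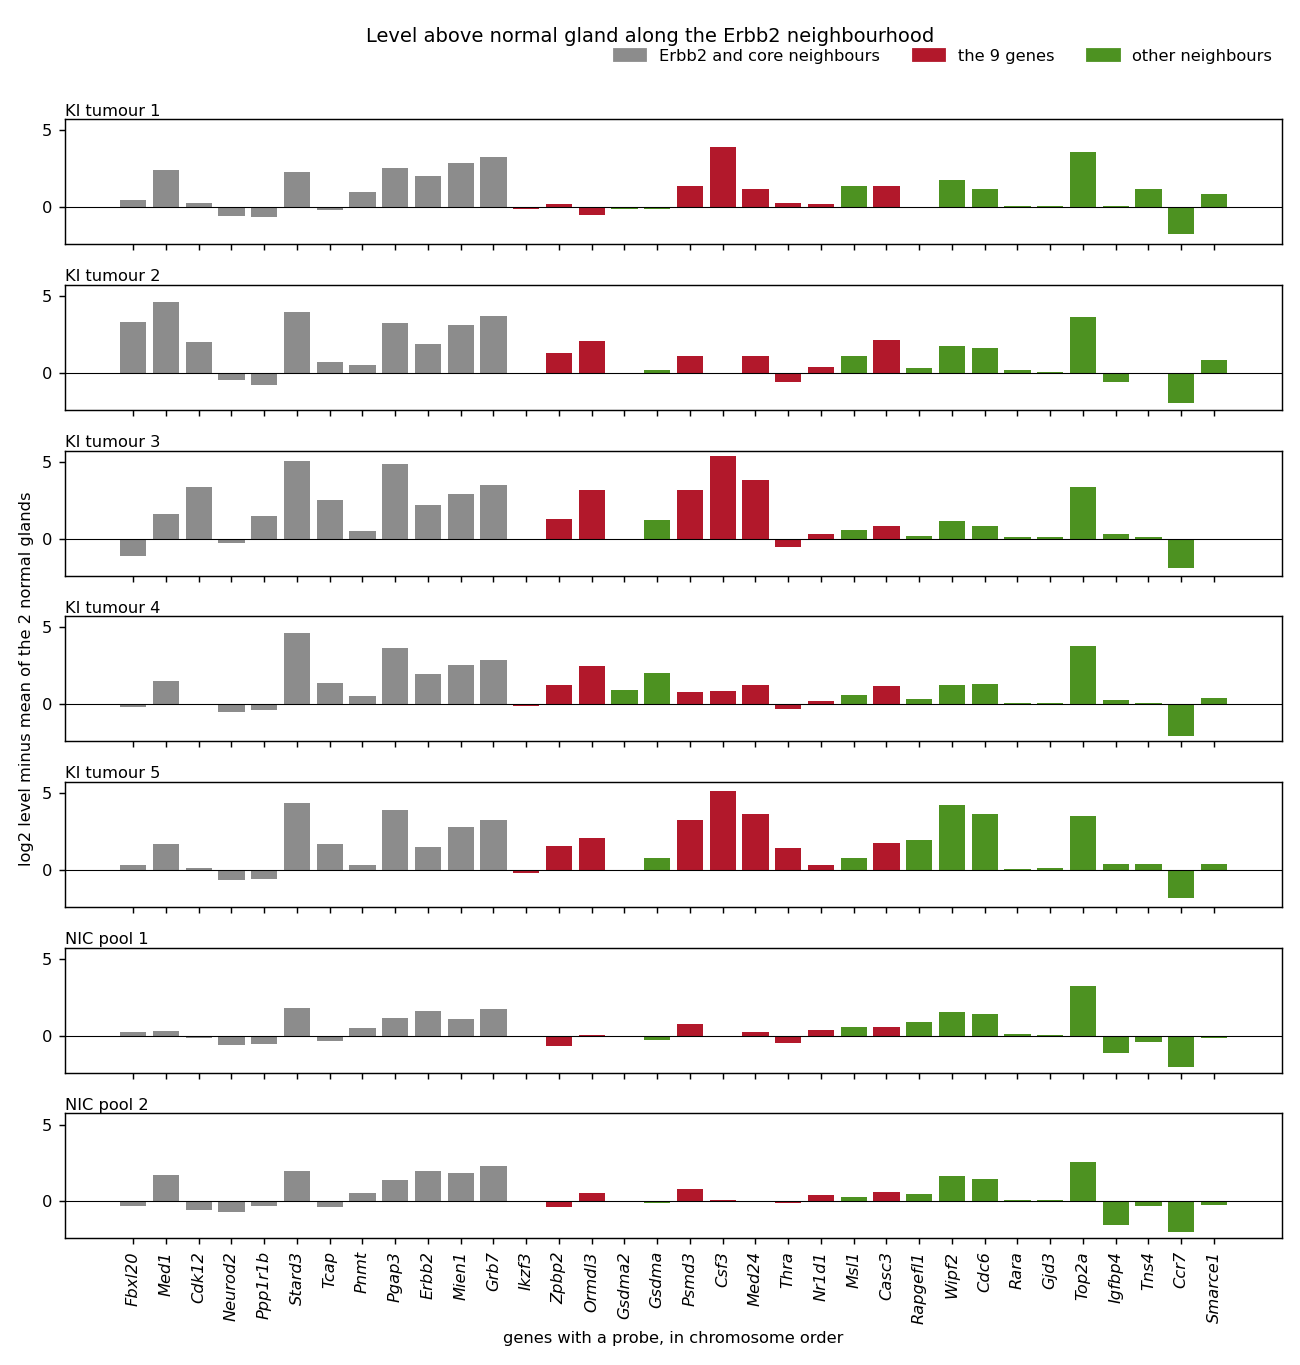
Bars show, for each KI tumour and NIC pool, the level minus the mean of the 2 normal glands (log2) of each gene with a probe, in chromosome order. Red bars are the 9 genes, grey Erbb2 and its core neighbours from Fbxl20 to Grb7, green the other neighbours; in KI tumour 1 Ormdl3 is below the normal mean while Csf3 is 3.92 above it, and Wipf2 and Cdc6 are highest in KI tumour 5.

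The complexes to which Psmd3 and Med24 belong did not follow them from tumour to tumour. Nor did a joint list of exon junction and nonsense-mediated decay genes follow Casc3. The mean of that list was −0.08, −0.27, −0.15, −0.13 and −0.10 in KI tumours 1 to 5, lowest in tumour 2, where Casc3 was highest. The mean level of 20 other 19S proteasome subunits was 0.20, −0.09, 0.11, 0.18 and 0.06 in KI tumours 1 to 5, against −0.09 and −0.11 in NIC pools and −0.33 and −0.55 in normal glands. KI tumours 3 and 5, where Psmd3 was far above the other KI tumours, were not the highest there. As a scale for the counts in these lists, 17.8% of all genes rose and 24.9% fell against normal. Against NIC pools 2.92% rose and 3.29% fell. Against normal 10 of the 20 rose and 0 fell (median 0.44; 6 higher without normal gland 2), and against NIC pools 4 rose and 0 fell (0 or 1 without either pool or any of KI tumours 1, 3, 4 and 5). Psmd13 rose by 2.33 ± 0.41 (adjusted p = 0.00353) and the ATPase subunit Psmc3 by 1.45 ± 0.18 (adjusted p = 0.00092) against normal. The mean of 29 other Mediator subunits lay between −0.07 and 0.03 in all KI tumours, against −0.17 and −0.06 in NIC pools and −0.44 and −0.55 in normal glands. Of these 10 rose and 2 fell against normal (5 higher with arrays scaled to 1 spread or quantile normalised; 0 lower with arrays scaled, and 1 and 4 lower without normal gland 1 and 2), with Med19 higher by 1.97 ± 0.41 (adjusted p = 0.00742), and 0 were called against NIC pools. Of 16 exon junction and nonsense-mediated decay genes 7 rose and 1 fell against normal (median 0.46; 1 higher with arrays scaled to 1 spread or quantile normalised, 11 with probes averaged and 4 without normal gland 2), with the core helicase Eif4a3 higher by 1.13 ± 0.27 (adjusted p = 0.0139, not called without normal gland 2 or under either scaling), and 0 were called against NIC pools.

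Over all genes, 17.8% rose and 24.9% fell in KI tumours against normal glands. Against NIC pools 2.92% rose and 3.29% fell. Of 14 sphingolipid synthesis genes 5 rose and 2 fell in KI tumours against normal (median 0.26). Ormdl1 and Ormdl2, the relatives of Ormdl3 on other chromosomes, rose by 1.31 ± 0.20 and 1.25 ± 0.18 (adjusted p = 0.00211 and 0.00173), Ormdl1 not being called with probes averaged, and the ceramide synthase Cers4 fell by 1.85 ± 0.26 (adjusted p = 0.0015). The count of higher genes was 3 without normal gland 2 or KI tumour 5. Against NIC pools 1 rose, the desaturase Degs2 (0.40 ± 0.078, adjusted p = 0.0316), a call lost without either pool or any of KI tumours 1, 4 and 5.

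The genes whose levels were most like those of each of the 9 were found by the root mean square difference over the 9 RNA samples, each gene first centred on its own mean. Psmd3 and Med24 were among each other's 2 nearest genes, at 0.43 log2 units. The other near gene of Psmd3 was Reg1, a secreted lectin-like protein on chromosome 6, at 0.41. Psmd3 was saturated on arrays of KI tumours 3 and 5, so its distances are uncertain and these 2 are not ranked. For Csf3 the nearest were the inflammatory cytokine Il1b at 0.89 and Stfa2l1 at 1.02. The distance is not scaled to a gene's span, which was largest for Csf3 (5.39), so distances are not compared between the 9 genes. Il1b had 3.78 to 4.26 in KI tumours 1, 3 and 5, 2.37 in tumour 4 and 0.61 in tumour 2. Stfa2l1 had 3.82 to 5.64 in tumours 1, 3 and 5, less in tumour 4 and −0.08 in tumour 2. Both were highest in tumour 1, unlike Csf3, and lay between −0.24 and 0.37 in NIC and normal samples. For Thra the nearest were the neutrophil granule gene Ngp at 0.31 and 4930426L09Rik at 0.32, both high in KI tumour 5 alone. Ormdl3 was nearest to Elovl4, a fatty acid elongase, at 0.60, Zpbp2 to Arnt2 at 0.29, and Casc3 to Rin2 at 0.26. Apart from Med24, Psmd3 and Krt17, which was the other near gene of Med24 at 0.64, none of these genes lies on chromosome 11. Ikzf3 and Nr1d1 spanned under 2 log2 units and were not set against other genes.

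Facts of the whole series bear on these values. The KI arrays and the other arrays lie in different value tables and platform records, so table, platform and the KI group cannot be told apart. Luminal epithelial markers averaged 2.998 to 3.38 in KI tumours, against 2.45 and 2.94 in NIC pools and 1.34 and 1.499 in normal glands. Adipocyte markers averaged 0.83, 0.52, 2.10, 0.52 and 1.32 in KI tumours 1 to 5. They averaged 1.76 and 0.54 in NIC pools and 3.86 and 3.18 in normal glands. Fibroblast markers averaged −0.28, −1.52, 0.44, −0.95 and 0.30 in KI tumours 1 to 5 (NIC −0.61 and −1.71, normal 1.85 and 1.84). Endothelial markers averaged 2.34, 1.31, 2.58, 2.07 and 2.68 (NIC 1.91 and 1.28, normal 3.59 and 3.19). KI tumours 3 and 5 were the highest KI tumours for adipocyte, fibroblast, endothelial and basal markers (basal 1.85 and 1.98). Skeletal muscle markers averaged 0.80 in KI tumour 2 and −1.39 to −0.97 in the other KI tumours, against −2.08 and −1.94 in NIC pools and 0.07 and 1.40 in normal glands. The part of tissue content in the levels of the 9 genes was not tested. Leaving out any 1 sample kept the KI differences of Zpbp2, Ormdl3, Psmd3, Csf3, Med24 and Casc3 above 0 in both comparisons.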

How the data were processed

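The 9 genes and all gene lists were chosen with earlier results of these data known. Per the file headers and labels, 18 2-colour Agilent arrays hold 9 RNA samples, each against a common reference with dyes exchanged. The deposited value tables hold log2 ratios, numbered by spot. For KI arrays, scale and direction (sample over reference) were checked by correlating each column with the loess-normalised scanner ratios of its array (Pearson r over spots 0.982 to 0.988). For normal and NIC arrays they were taken by analogy. The submitters' processing notes name RMA without a role. The sources used here name no other step. The deposited scanner files of the 10 KI arrays hold intensity per channel and a log10 ratio from Agilent Feature Extraction, per the file headers. Their intensities were corrected here with normexp (offset 50) and loess as an alternative. The 2256 control spots were left out.

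Probes were named through a RefSeq gene table (GRCm38.p6): 20835 by accession, 4985 by symbol, 5231 by older symbol, and 10123 kept the file's name. For each gene the probe brightest on average over the KI arrays was used. The replicate was the RNA sample. Linear models with moderated variance in limma 3.58.1 (R 4.3.3), tested in both directions and adjusted by Benjamini-Hochberg across 28910 genes, gave all tests. KI comparisons came from 1 fit of all samples, NIC against normal from its own 4 samples. Each fit took a common spread for its groups, although single tumours, pools and glands can differ in spread. A pool entered as 1 sample, so the p-values do not measure the spread between the tumours in a pool. Run on simulated data with normally distributed noise, the fit recovered the size of known changes on average. That is a check of the code and not of power with so few samples. The p-values rest on the spread among these RNA samples, and their small number limits the precision. Named were all probes of the 9 genes, in each list at most 3 called genes with the largest difference per comparison, neighbours by value, and the 2 nearest genes in likeness for genes spanning over 2 log2 units. 1 gene that this rule selects is not reported here. Nr1d2, Csf3r, S100a9, Retnlg, Lcn2, Mmp8, Cxcl5, Elane, Ngp (as a granule gene), Camp, Pax5 and Blk were named after their values were seen. Image extraction took place on 2 days. The smaller held 2 KI arrays, whose dye partners were extracted on the other. Alternatives were dye, probe choice, scaling, array model, signal filter, scanner values, samples in the fit and each sample left out. The limit of 1 log2 unit above the highest NIC or normal sample, and its alternatives, were chosen after seeing the data.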

Additional observations from a re-analysis of the deposited data

Results flagged for a closer look

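Among the 14 probes of the 9 genes, 2 had a KI tumour far from the other KI tumours by the Dixon test at the 95% level, which chance passes in about 1 of 20 groups. The third Ikzf3 probe read 3.19 in KI tumour 5, against 0.03 to 0.20 in the other KI tumours, with its reference channel well above background on 1 of the 10 KI arrays. The brightest Zpbp2 probe read 0.31 in KI tumour 1, against 1.33 to 1.65 in the other KI tumours.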

How the results depend on the processing

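Genes called in KI against normal numbered 12348, and 8132 with arrays scaled to 1 spread and 6503 among genes above the median signal. KI against NIC gave 1794 calls, and 4013 with all arrays and RNA as a random block, 958 after quantile normalisation, 884 above the median signal, 3708 with scanner values and 503 to 2102 with a sample left out. NIC against normal gave 5374 calls, and 2038 from Cy3-labelled samples, 10630 with the random block, 3432 above the median signal, 10390 with all 9 samples in the fit, and 0 to 4231 with a sample left out. It was 0 without NIC pool 1 or 2, where 6394 and 6973 genes had an unadjusted p under 0.05. Of the 9 genes, calls against normal (3) were 1 with probes averaged, 7 with the random block, 1 above the median signal, which drops Ikzf3, Zpbp2, Csf3 and Nr1d1, and 0 to 4 with a sample left out. Calls against NIC (1) were 2, 0 and 0 to 2 under the random block, the filter and samples left out. NIC against normal (0) gave 3 with the random block, 1 with all samples in the fit and 0 to 1 with a sample left out. The cause of these changes was not tested. Of 393 alternative values for the differences of the 9 genes, 369 lay within 1 SD. In the gene lists 292 of 1152 counts moved by over 1.5 times. For the genes named from them 227 of 1203 values lost the call. The criteria differ between the 9 genes, the lists and the named genes, so their stability is not ranked. Beside the list counts given above, against normal the G-CSF list (3 higher) gave 7 with the random block, 1 after quantile normalisation and 6 with scanner values, B lymphocyte genes (5 lower) 2 and T lymphocyte genes (6 lower) 1 above the median signal, the thyroid list (3 lower) 1 with arrays scaled, and the other distal neighbours (2 higher) 5 with the random block. Against NIC the 19S subunits (4 higher) gave 2 with either dye alone. The counts of genes over the limit in each KI tumour stayed within 1.5 times under scaling, either dye, averaged probes and each NIC or normal sample left out; averaging probes removed Zpbp2 in tumours 2 to 5. Cd79b turned to −0.012 in KI against NIC after quantile normalisation. No paired analysis between groups was possible because the labels link no sample of a group to a sample of another group.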
